A study of Mus musculus with 12 samples.

Results

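A group of 8 genes of the contractile basal layer of the mammary gland was followed through normal mammary tissue and mammary tumors of mice. They are Acta2, Myh11, Cnn1, Tagln and Mylk of the contractile apparatus, Oxtr, the oxytocin receptor, and Trp63 and Cdh3, which belong to basal cell identity and adhesion. The 8 genes were chosen by name, and each was found as 1 row in every one of the 12 samples, among 24094 gene names in the series and 23301 names shared by all samples. The normal samples were mammary tissue of untreated wild type FVB mice, and the tumor samples were untreated mammary tumors of MMTV-PyVT mice, which carry the polyoma middle T antigen under the mouse mammary tumor virus promoter, a promoter active in mammary epithelium. The other samples were tumors of MMTV-PyVT mice injected with DMSO, the solvent, or with 1 mg/kg C646, an inhibitor of the acetyltransferase p300; the sample labels carry the same 1 mg/kg for DMSO. There were 3 replicates in each of the 4 groups, and all mice were female and 12 weeks old. Per the study's methods, a normal replicate pooled the abdominal and inguinal glands of 3 mice, whereas each untreated tumor was taken from a thoracic gland of 1 mouse and each injected sample was the biggest tumor of 1 mouse. Gland position, pooling and tumor state therefore cannot be told apart in the comparison of tumor with normal.

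Myoepithelial cells form the outer, basal layer of mammary ducts and alveoli. When oxytocin binds its receptor on these cells, calcium is released inside them, calmodulin activates myosin light chain kinase, and myosin pulls on smooth muscle actin so that milk is pushed out of the alveoli. The same actin, myosin and binding proteins are made by vascular smooth muscle and pericytes, so these transcripts are not specific to the epithelium. In whole tissue RNA, fewer cells of a type and less RNA per cell cannot be told apart.

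The values are FPKM, fragments mapped to a gene scaled to its transcript length and to library size, so levels can be set side by side between genes. The summed FPKM of a library ranged from 526855 to 783719, and the number of reads behind a value is unknown. For 11 pairs of libraries, single reads left regular steps in the low values. Within these pairs, the FPKM that 1 read was worth differed by a ratio of 0.653 to 1.32. None of these pairs set a normal library against a tumor library, so the relative depth of normal and tumor libraries is unknown. Several libraries stood apart in RNA of other tissues. The 7 skeletal muscle genes summed to 1468 to 4099 FPKM in the 3 untreated tumors, to 303 to 326 FPKM in DMSO replicate 3 and C646 replicates 1 and 3, to at most 1.13 FPKM in the other 3 injected tumors, and to 33.8 to 89.6 FPKM in normal tissue. The 6 adipocyte genes summed to 24998 to 31428 FPKM in normal tissue, to 2397 FPKM in Tumor replicate 1, and to at most 579 FPKM in the other tumors. The T cell gene Cd3e was high only in the normal libraries, where it measured 45.1 to 55.1 FPKM, against at most 0.319 FPKM in any tumor. What part these other tissues had in the values below was not tested.

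Contractile transcripts were abundant in normal tissue and low in every untreated tumor, whereas the basal identity genes were not. Acta2, Myh11, Cnn1, Tagln, Mylk and Oxtr all fell, by 4.93-fold to 18.2-fold on the fitted log2 scale. The folds of the 2 lowest genes depend on the pseudocount: with a pseudocount of 1 FPKM, Myh11 fell 8.19-fold in place of 18.2-fold and Cnn1 7.02-fold in place of 13.6-fold. Trp63 rose 2.48-fold, and Cdh3 did not pass the test. So 6 of the 8 genes were lower in tumor and 1 was higher, when 31.7% of the 13031 genes tested were called lower and 28.8% higher with limma at a Benjamini-Hochberg adjusted p under 0.05. The median log2 difference of the 8 genes was -2.82, and that of all genes tested was -0.02. In 6 of the 8, every tumor lay below every normal sample, as did 35.8% of all genes tested.

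**Figure D1:**
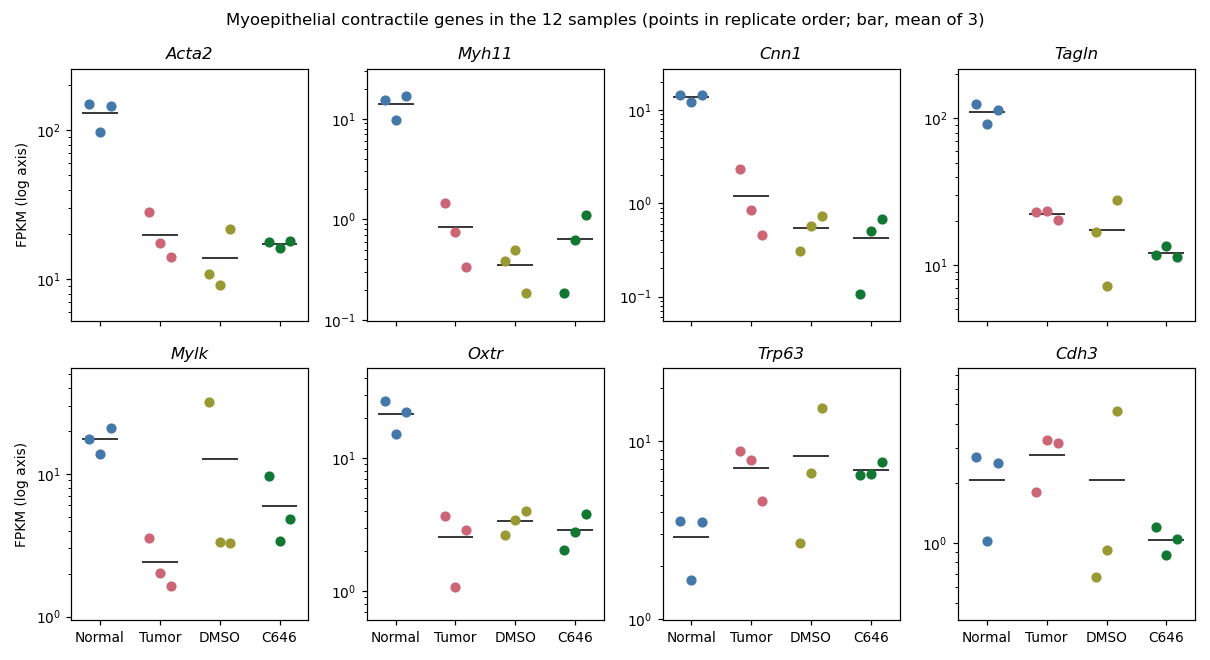
FPKM of each gene on a log axis in the 3 normal, 3 tumor, 3 DMSO and 3 C646 samples; points are replicates 1, 2 and 3 from left to right and bars are group means. For Acta2, Myh11, Cnn1, Tagln and Oxtr all 9 tumors lie below all 3 normal samples, Mylk has 1 DMSO tumor above them at 31.7 FPKM, and Trp63 and Cdh3 show no such gap.

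Acta2 encodes smooth muscle actin, the thin filament of the contractile apparatus and the most used marker of myoepithelial cells. It measured 150.4, 97.2 and 144.5 FPKM in Normal replicates 1 to 3 and 28.1, 17.5 and 14.2 FPKM in the tumors, with no overlap between the groups. The fall was 2.75 on the log2 scale (95% confidence interval -3.42 to -2.08), or 6.70-fold, with a limma adjusted p of 0.000205. The gene lies on chromosome 19 of GRCm38, the same build as mm10, at chr19:34240336-34255585. Transcription of smooth muscle genes is driven by serum response factor, which binds CArG boxes, and the promoter region of Acta2 is shown for this reason. In the 250 bases before its RefSeq start (GRCm38.p6), no CArG box with an all A or T core was found on either strand, a form that 1.47% of 32851 RefSeq promoters of that length hold. With 1 C or G allowed in the core, 2 boxes were found, and 7.24% of the promoters hold such a box. Such a box matches on both strands. Both are printed as read on the minus strand of the chromosome, which is the coding strand, with the box in capitals in 30 bases each. Both stretches lie inside the span of the gene given above, so the start used is not its outermost start.
Acta2, chr19:34255438-34255467, box 84 to 75 bases before the start: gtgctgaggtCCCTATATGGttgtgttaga
Acta2, chr19:34255388-34255417, box 34 to 25 bases before the start: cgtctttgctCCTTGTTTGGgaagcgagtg
The promoter table held 4 of the 8 genes, and in Cnn1, Mylk and Oxtr neither form of the box was found in the same window. The windows of Mylk and Oxtr, at chr16:34784700-34784949 and chr6:112489826-112490075, lie inside the spans of these genes given below, before the start of the transcript in the table and not before the outermost start of the gene. The sequence CATTCC, the MCAT element bound by TEAD factors, was found once in Acta2, 146 to 141 bases before the start, and once in Mylk, 158 to 153 bases before the start, as in 12.6% of all promoters, on either strand. TATAAA was in none of the 4, against 12.4% of all promoters. Such matches describe the letters in the window only.

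Tagln encodes transgelin, an actin binding protein of smooth muscle, and was the contractile transcript closest in level to Acta2. It measured 126, 91.9 and 113 FPKM in normal tissue and 23.1, 23.3 and 20.2 FPKM in tumors, again without overlap. The tumors differed little among themselves here, and Tagln had the narrowest interval of the 8 genes, a log2 difference of -2.30 (-2.67 to -1.94; limma adjusted p = 4.16e-05). The gene lies at chr9:45929628-45936058, where its end overlaps that of Pcsk7 on the other strand by 108 bases. The libraries did not keep strand, so reads there cannot be assigned. Pcsk7 measured 10.2 to 29.5 FPKM over the 12 samples and was higher in tumor by 0.91 on the log2 scale; its part in the values of Tagln was not tested.

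Myh11, the smooth muscle myosin heavy chain, showed the largest fall. It measured 15.4, 9.77 and 16.8 FPKM in normal tissue and 1.47, 0.743 and 0.334 FPKM in tumors. The groups were far apart, and the log2 difference was -4.19 (-5.36 to -3.01; limma adjusted p = 0.000382), or 18.2-fold. Cnn1, calponin, which binds actin and restrains myosin, came next. It measured 14.5, 12.0 and 14.3 FPKM in normal tissue and 2.32, 0.841 and 0.459 FPKM in tumors, a log2 difference of -3.76 (-4.98 to -2.54; limma adjusted p = 0.000728). Both genes had only 1 tumor at or above 1 FPKM, so they passed the filter on low values only because the normal samples were high, and had to differ. Myh11 is at chr16:14194527-14292188 and Cnn1 at chr9:22099221-22109221.

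Mylk encodes myosin light chain kinase, the enzyme that switches smooth muscle myosin on. It measured 17.5, 13.8 and 21.0 FPKM in normal tissue and 3.58, 2.03 and 1.64 FPKM in tumors. All tumors were below all normal samples, and the log2 difference was -2.89 (-3.62 to -2.16; limma adjusted p = 0.000238). The gene spans chr16:34745199-35002436 and contains antisense genes, of which 1700119H24Rik measured at most 0.45 FPKM and E130310I04Rik at most 0.0552 FPKM in any sample. Reads of the 2 strands cannot be told apart in these libraries.

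Oxtr, at chr6:112473683-112491035, encodes the G protein coupled receptor through which oxytocin triggers contraction. It measured 27.2, 15.1 and 22.5 FPKM in normal tissue, above Mylk and Myh11 in mean level, and 3.66, 1.06 and 2.88 FPKM in tumors. The groups did not overlap, and the log2 difference was -3.21 (-4.29 to -2.13), a 9.25-fold fall with a limma adjusted p of 0.000865. Avpr1a, the related vasopressin receptor, stayed at or below 0.641 FPKM in all normal and untreated tumor samples.

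Trp63 encodes p63, the transcription factor that maintains basal epithelial cells. It measured 3.56, 1.65 and 3.50 FPKM in normal tissue and 8.85, 7.82 and 4.63 FPKM in tumors. Every tumor lay above every normal sample, and the log2 difference was 1.31 (0.43 to 2.19; limma adjusted p = 0.0186). The call did not hold without Tumor replicate 1 (log2 difference 1.12, limma adjusted p = 0.0502) or Tumor replicate 2 (1.21, adjusted p = 0.05002), or in a fit over all 12 samples (1.31, adjusted p = 0.0524). The direction was the same in each. Its relatives did not pass the test or were too low for it, with Trp53 at 57.5 to 71.9 FPKM in normal tissue and 70.4 to 88.7 FPKM in tumors (log2 difference 0.28, limma adjusted p = 0.137) and Trp73 below 1 FPKM in all 6 samples. Trp63 lies at chr16:25683763-25892088.

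Cdh3 encodes P-cadherin, the classical cadherin of basal cells, and lies beside the E-cadherin gene Cdh1 at chr8:106510852-106556911. It measured 2.71, 1.02 and 2.52 FPKM in normal tissue and 1.80, 3.31 and 3.20 FPKM in tumors. The groups overlapped, and the log2 difference was 0.48 (-0.54 to 1.49; limma adjusted p = 0.371). Its neighbour Cdh1, the cadherin of luminal cells, rose at the same time from 25.5 to 37.7 FPKM in normal tissue to 171 to 267 FPKM in tumors. The log2 ratio of Cdh3 to Cdh1 within a sample was -3.95 ± 0.59 (SD, n = 3) in normal tissue and -6.22 ± 0.83 (SD, n = 3) in tumors. The samples did not overlap in this ratio, and the exact permutation test gave p = 0.1, the smallest p that 3 samples against 3 can give.

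**Figure D2:**
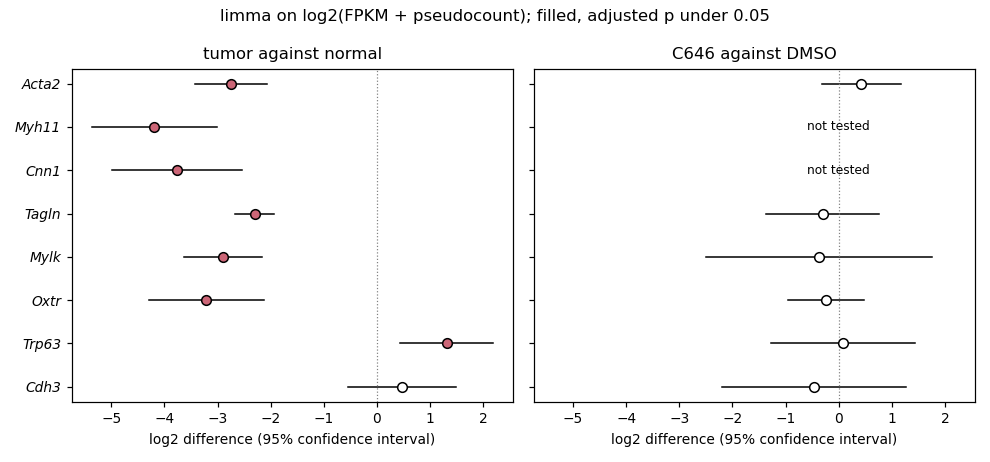
Log2 difference and 95% confidence interval of each gene from limma, on log2(FPKM + pseudocount), for tumor against normal on the left and C646 against DMSO on the right; filled points have an adjusted p under 0.05. On the left 6 genes lie below 0 and Trp63 lies above it, and on the right each of the 6 intervals drawn spans 0, while Myh11 and Cnn1 were too low to be tested.

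The replicates of a group did not vary gene by gene alone. In normal tissue, all 8 genes were lowest in replicate 2, and 6 of them were highest in replicate 1. Normal replicate 2 also had the highest adipocyte sum, 31428 FPKM against 24998 and 28103 FPKM, and the lowest luminal epithelial sum, 481 FPKM against 1007 and 608 FPKM. Its basal epithelial sum was the lowest too, at 175 FPKM against 269 and 187 FPKM. Its sum over 9 mural cell genes was the highest, at 147 FPKM against 129 and 134 FPKM, although the 8 genes were lowest there. Among the untreated tumors, replicate 1 was the highest in 6 of the 8 genes and replicate 3 the lowest in 6. Tumor replicate 1 also had the highest summed FPKM of the 3, 783719 against 685102 and 625568. It had 645.7 FPKM over 8 fibroblast genes, against 325 and 302 FPKM, and 77.4 FPKM over 9 mural cell genes, against 60.1 and 59.8 FPKM. Its luminal epithelial sum was the highest too, at 4609 FPKM against 3415 and 3525 FPKM. The same held for its basal epithelial sum, at 599 FPKM against 562 and 556 FPKM. The part of these markers in the members' values was not tested. Leaving out any 1 of the 6 samples kept the 6 falls called, with log2 differences between -4.68 (Myh11) and -2.20 (Tagln).

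The 5 genes of the contractile apparatus summed to 324, 225 and 310 FPKM in normal tissue and to 58.6, 44.4 and 36.8 FPKM in untreated tumors. Acta2 and Tagln together made up 84.2% ± 1.1 (SD, n = 3) of this sum in normal tissue and 90.9% ± 3.1 (SD, n = 3) in tumors. Myh11 and Cnn1 took 4.85% ± 0.55 and 4.81% ± 0.47 in normal tissue and 1.69% ± 0.80 and 2.36% ± 1.41 in tumors (SD, n = 3). In the DMSO tumors the sum was 60.0, 20.7 and 54.0 FPKM, and in the C646 tumors 39.5, 34.3 and 35.9 FPKM. One tumor stood apart in makeup: in DMSO replicate 1 Mylk alone was 52.9% of the sum, against 4.46% to 24.6% in the other 11 samples.

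**Figure D3:**
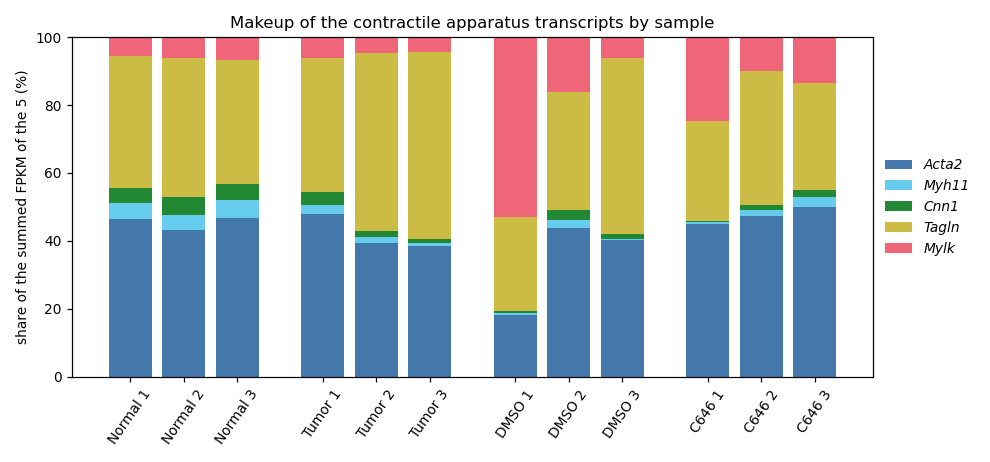
Share of each of the 5 contractile apparatus genes in their summed FPKM, in percent, as stacked bars for each of the 12 samples. Acta2 and Tagln fill most of every bar except that of DMSO replicate 1, where Mylk takes 52.9%.

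A keratin ratio within each library removes the library's own scale, although the contractile transcripts can also come from cells without these keratins. The measure was the log2 ratio of a gene to the mean of Krt5 and Krt14, keratins of basal cells. Krt14 rose in tumors, from 26.4 to 49.1 FPKM to 75.4 to 122 FPKM (log2 difference 1.56, limma adjusted p = 0.00231), while Krt5 measured 27.7 to 63.3 FPKM and 35.7 to 79.4 FPKM (0.52, adjusted p = 0.283). Relative to these keratins the 6 genes were lower in every tumor than in every normal sample. The share of all genes with such a gap in this ratio was not computed. The rise of Krt14 alone lowers the ratio of a gene that stays unchanged. The ratio of Acta2 was 1.43, 1.85 and 2.22 in normal tissue and -1.49, -2.49 and -1.87 in tumors, a difference of -3.78. For Tagln the difference was -3.34, for Mylk -3.93, for Oxtr -4.25, for Cnn1 -4.80 and for Myh11 -5.22, each with an exact permutation p of 0.1, the smallest possible. The ratio of Trp63 was -3.70 ± 0.49 in normal tissue and -3.43 ± 0.25 in tumors (SD, n = 3), and the groups overlapped (exact permutation p = 0.5). Without Normal replicate 3 the difference of 0.27 became 0.55 and the groups no longer overlapped (exact permutation p = 0.2). The ratio of Cdh3 was -4.21 ± 0.55 and -4.77 ± 0.72 (SD, n = 3; exact permutation p = 0.4). Against Krt5 alone, a choice made after the values were seen, the difference of Acta2 was -3.26, that of Tagln -2.82 and that of Trp63 0.79, the last with overlap between the groups (exact permutation p = 0.2).

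**Figure D4:**
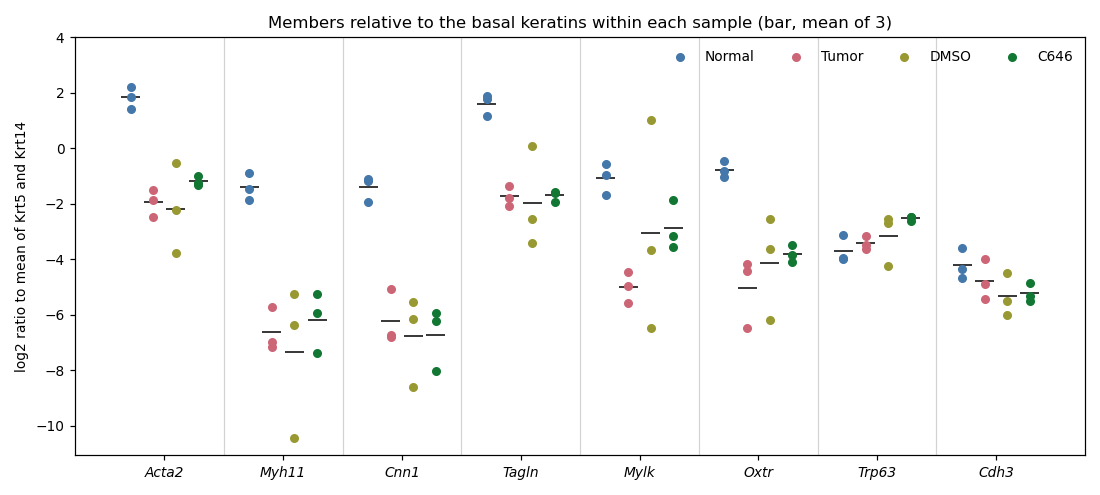
Log2 ratio of each gene to the mean of Krt5 and Krt14 within each of the 12 samples, with the 3 replicates of a group as points and their mean as a bar. The 3 tumors lie below the 3 normal samples for the first 6 genes, while for Trp63 and Cdh3 the groups overlap.

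C646 was given to find out what inhibiting p300 does to the tumors, and no member passed a test between C646 and DMSO. With limma, 0% of 12083 genes tested were called at an adjusted p under 0.05 and 3.18%, 384 genes, had an unadjusted p under 0.05. None of the 6 members that could be tested had either, with a smallest unadjusted p of 0.221. In 8.56% of all genes tested the groups did not overlap, and in none of these 6 members. Myh11 and Cnn1 were below the limit of 1 FPKM in at least 3 samples and were not tested. Their groups overlapped as well, at 0.184 to 0.492 FPKM with DMSO and 0.185 to 1.10 FPKM with C646 for Myh11, and at 0.310 to 0.731 FPKM and 0.106 to 0.672 FPKM for Cnn1.

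Acta2 measured 10.9, 9.10 and 21.8 FPKM in the DMSO tumors and 17.8, 16.2 and 18.0 FPKM in the C646 tumors. The C646 values lay inside the range of the DMSO values, and the interval of the log2 difference ran from -0.32 to 1.16. Tagln measured 16.7, 7.24 and 28.0 FPKM with DMSO and 11.7, 13.6 and 11.4 FPKM with C646, with an interval from -1.37 to 0.76. In both genes the C646 tumors were closely grouped and the DMSO tumors spread. Oxtr measured 2.65, 3.41 and 3.99 FPKM with DMSO and 2.06, 2.76 and 3.78 FPKM with C646, and its interval of -0.96 to 0.47 was the narrowest of the 6. These intervals do not show that the groups are alike: they also hold differences as large as their bounds.

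Trp63 measured 2.67, 6.65 and 15.4 FPKM with DMSO and 6.43, 6.54 and 7.65 FPKM with C646 (interval of the log2 difference -1.28 to 1.43). Cdh3 measured 0.675, 0.919 and 4.62 FPKM with DMSO and 1.20, 0.869 and 1.04 FPKM with C646 (-2.19 to 1.27). Both spreads came from the same pair of tumors, DMSO replicate 1 being the lowest and DMSO replicate 3 the highest. DMSO replicate 3 was also the highest DMSO tumor in Acta2, Tagln, Cnn1 and Oxtr, and it measured 229 FPKM of Krt5 and 92.2 FPKM of Krt17, against at most 35.2 and 14.7 FPKM in the other 5 injected tumors. It also carried skeletal muscle RNA, as did C646 replicates 1 and 3, which had no such keratin levels. Without these 3 libraries only C646 replicate 2 remains against DMSO replicates 1 and 2, and this single sample has to be assumed to vary like the DMSO tumors. The log2 difference of Tagln then turned from -0.30 to 0.30 and that of Mylk went from -0.38 to -1.59.

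Mylk behaved differently from the rest of the contractile apparatus in the injected tumors. It measured 31.7, 3.35 and 3.29 FPKM with DMSO and 9.73, 3.41 and 4.82 FPKM with C646, so 1 tumor of each group was far above the other two, and DMSO replicate 1 exceeded all 3 normal samples. The log2 difference of -0.38 (-2.50 to 1.75) became 0.71 without DMSO replicate 1. In that tumor Myh11 was 0.384 FPKM and Cnn1 0.310 FPKM, Krt5 was the lowest of all 12 samples at 8.01 FPKM, and the skeletal muscle genes summed to 0.376 FPKM. The mural cell genes summed to 102 FPKM there, of which Mcam was 59.7 FPKM, against 59.8 to 84.6 FPKM in the other 8 tumors. Without Mcam the sum was 42.0 FPKM, inside the 23.5 to 48.4 FPKM of the other 8 tumors, and Cspg4 was the lowest of the 9 at 0.366 FPKM. Plcb1, a phospholipase that acts downstream of the oxytocin receptor, was also highest of the injected tumors there, at 4.30 FPKM against 0.909 to 2.18 FPKM.

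Set against the basal keratins, the DMSO and C646 tumors overlapped in all 8 ratios, and the exact permutation p ran from 0.2 for Trp63 to 1 for Cnn1. This depended on DMSO replicate 1: without it the C646 tumors were all higher for Acta2, Tagln, Mylk, Trp63 and Cdh3, by 1.80, 1.28, 2.21, 0.94 and 0.52 on the log2 scale. The exact permutation p was then 0.2 for each of the 5, with 2 DMSO tumors left, 1 of them DMSO replicate 3 with its high keratins. For Trp63 the overlap was also lost without C646 replicate 2, with the C646 tumors higher by 0.68 (exact permutation p = 0.2). The share of all genes with such a gap was not computed here either. The C646 tumors were again the tighter group, for example -4.10, -3.86 and -3.50 for Oxtr, against -2.55, -3.64 and -6.20 in the DMSO tumors. The lowest of these belonged to DMSO replicate 3. In these files Krt14 shares a row with Krt16, so the ratios of the injected tumors cannot be compared with those of the other samples.

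In order of group means, normal tissue was first for 6 genes. For Acta2 the means were 131 ± 29.2 FPKM in normal tissue, 19.9 ± 7.29 in untreated tumors, 17.3 ± 0.969 with C646 and 13.9 ± 6.87 with DMSO (SD, n = 3 each), and the 3 tumor groups overlapped. Oxtr ran from 21.6 ± 6.09 FPKM in normal tissue to 3.35 ± 0.672 with DMSO, 2.87 ± 0.867 with C646 and 2.54 ± 1.33 in untreated tumors (SD, n = 3), the last 3 again overlapping. For Mylk the mean of 12.8 ± 16.4 FPKM with DMSO (SD, n = 3) rested on the 1 high tumor. Trp63 had the opposite order, with 8.25 ± 6.54 FPKM with DMSO, 7.10 ± 2.21 in untreated tumors, 6.87 ± 0.672 with C646 and 2.91 ± 1.09 in normal tissue (SD, n = 3), although DMSO replicate 1, at 2.67 FPKM, lay within the normal range. Cdh3 was 2.77 ± 0.840 FPKM in untreated tumors, 2.08 ± 0.924 in normal tissue, 2.07 ± 2.21 with DMSO and 1.04 ± 0.164 with C646 (SD, n = 3). The ranges of neighbours in that order overlapped. The 2 experiments were tabulated separately with different gene rows, so untreated and injected tumors were not tested against each other. For 5 of the 8 genes, Acta2, Myh11, Cnn1, Tagln and Oxtr, all 9 tumors measured below all 3 normal samples, as in 22.5% of 13232 genes found in all samples and at or above 1 FPKM in at least 3 of them.

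The rest of the contractile pathway did not fall as a whole. Of 12 further filament and binding proteins, 3 were lower in tumor, 4 were higher and 5 were not called, with a median log2 difference of 0.41. Over all genes tested, 31.7% were called lower and 28.8% higher. Myl9, the regulatory light chain that Mylk phosphorylates, fell from 59.3 to 84.2 FPKM to 11.7 to 35.9 FPKM (log2 difference -2.02, limma adjusted p = 0.00444). Actg2, the enteric smooth muscle actin, fell by 2.26 on the log2 scale (limma adjusted p = 0.00682), and Synpo2 fell as well. Tpm1 and Tpm2, the tropomyosins shared by smooth and striated muscle, rose by 2.32 and 1.86 (limma adjusted p = 0.000258 and 0.000643). Des, the intermediate filament of muscle, was higher too, at 50.5 to 106 FPKM against 18.8 to 27.3 FPKM. Des moved with the skeletal muscle genes: in the 3 injected tumors without that RNA it measured 0.207 to 0.568 FPKM, and in the 3 with it 10.9 to 15.9 FPKM. Tpm2 measured 8.62 to 20.8 FPKM and 34.3 to 46.5 FPKM in the same tumors. Tpm1 overlapped between them, at 173 to 248 FPKM without that RNA and 181 to 265 FPKM with it. What part the skeletal muscle RNA had in the rises of Tpm1, Tpm2 and Des was not tested.

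Of 14 signalling genes between the receptor and myosin, 6 were lower in tumor, 2 were higher and 6 were not called. The shares over all genes were 31.7% lower and 28.8% higher. The median of the 14 was -0.32, and Itpr3 was not analysed here. Without any 1 of the normal replicates the counts were 3 lower and 2 higher of 12 tested, as Plcb1 and Ppp1r12b then missed the filter and Ppp1r14a lost its call. Plcb1 went from 3.74 to 5.27 FPKM to 0.421 to 0.710 FPKM (log2 difference -2.96). Ppp1r12b and Ppp1r14a, a subunit and an inhibitor of myosin phosphatase, fell by 2.61 and 1.54 (limma adjusted p of Ppp1r14a = 0.0375). Plcb1 and Ppp1r12b were below 1 FPKM in all 3 tumors, passed the filter only through the normal samples and so had to differ. Calm2, a calmodulin gene used in all cells, rose by 1.35 (limma adjusted p = 0.000247). The G protein subunits Gnaq and Gna11 had log2 differences of 0.10 and -0.04 and were not called. With C646 none of the 13 signalling genes tested and none of the 10 filament genes tested was called.

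Among the transcription regulators of smooth muscle genes, 1 of the 5 tested was lower in tumor and none was higher, with a median of -0.10. The shares over all genes were 31.7% lower and 28.8% higher. The lower gene was Mkl1, a coactivator of serum response factor. It measured 10.7 to 14.9 FPKM in normal tissue and 1.86 to 4.60 FPKM in tumors (log2 difference -1.93, limma adjusted p = 0.0027). Srf itself measured 16.8 to 21.4 FPKM and 16.4 to 19.9 FPKM (-0.05, adjusted p = 0.77). Myocd, the smooth muscle coactivator, was at or below 0.065 FPKM in all samples and was not tested. In the injected tumors Mkl1 measured 6.94 to 10.7 FPKM with DMSO and 8.06 to 9.03 FPKM with C646, and none of the 5 was called.

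The relatives of the 8 genes were mixed, with 4 of the 14 tested lower and 6 higher, beside 31.7% and 28.8% of all genes. Actb, cytoplasmic actin, had a log2 difference of 0.01 and Actg1 rose by 1.35 (limma adjusted p = 0.966 and 0.000336). Myh9, the nonmuscle myosin heavy chain, measured 150 to 188 FPKM in normal tissue and 154 to 204 FPKM in tumors (log2 difference -0.01). Myh10, another nonmuscle myosin heavy chain, fell from 5.05 to 5.64 FPKM to 1.14 to 3.26 FPKM (limma adjusted p = 0.00964). Cdh2, N-cadherin, had a log2 difference of -2.69 and was below 1 FPKM in all 3 tumors, so it passed the filter only through the normal samples. Cnn3 rose by 0.65 and Cnn2 fell by 1.25 (limma adjusted p = 0.0118 and 0.000595), and Tagln2 had a log2 difference of 0.38 (adjusted p = 0.237). Acta1 and Mylk2, the skeletal muscle counterparts of Acta2 and Mylk, rose by 7.37 and 5.39. Mylk2 was at most 0.215 FPKM in normal tissue, passed the filter only through the tumors and so had to differ. Acta1 and Acta2 encode closely related actins, and whether the aligner exchanged reads between the 2 was not tested. In the untreated tumors Acta1 measured 606 to 1289 FPKM. Among the injected tumors, Acta2 measured 17.8 to 21.8 FPKM in the 3 with skeletal muscle RNA and 9.10 to 16.2 FPKM in the 3 without, and the part of Acta1 reads in this was not tested.

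Other basal genes were mixed. Of 11 basal epithelial genes tested, 4 were higher in tumor, 1 was lower and 6 were not called, with a median of 0.47, beside 28.8% of all genes called higher and 31.7% lower. In a fit over all 12 samples 3 of 10 tested were called, all higher. Krt14 was not in that fit, as it has no row of its own in the injected tumors. Itgb4 and Lamb3, an integrin and a laminin chain of the hemidesmosome, rose by 3.76 and 2.65 (limma adjusted p = 0.000306 and 0.000135), and Snai2 fell by 1.47 (adjusted p = 0.00458). Luminal epithelial genes were mostly higher, 7 of 9 with a median of 2.75, led by Cldn3 at a log2 difference of 3.54, and Esr1 was the 1 that was lower.

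The mural cell genes, which mark the other cells that make Acta2, Myh11, Cnn1 and Tagln, were lower in tumors as well. Of 9 tested, 6 were lower and none was higher, beside 31.7% and 28.8% of all genes, with a median of -2.05. The sum of the 9 was 129 to 147 FPKM in normal tissue and 59.8 to 77.4 FPKM in tumors. The log2 differences of Rgs5 and Pdgfrb were -2.05 and -1.97 (limma adjusted p = 0.000349 and 0.000251). That of Cspg4 was -3.40, with 1 tumor above 1 FPKM, so that it passed the filter through the normal samples. Abcc9 was at 0.668 to 0.943 FPKM in tumors, so it passed only through the normal samples and had to differ. Without any 1 of the normal replicates 5 of 8 tested were lower. Notch3, Higd1b and Mcam were not called. None of the 9 genes was at 0 in all samples of a group. Endothelial genes were lower in 5 of 5 (median -2.83) and fibroblast genes in 7 of 8 (median -2.66, Pdgfra not analysed here). Adipocyte genes were lower in 6 of 6, and skeletal muscle genes were higher in 7 of 7. The endothelial gene Tek and the adipocyte gene Lep had only 1 tumor at or above 1 FPKM and passed the filter through the normal samples. Myh1 and Mylk2 were below 1 FPKM in all normal samples, passed only through the tumors and had to differ. Without any 1 of the tumor replicates 5 skeletal muscle genes were tested, and all were higher. The part of mural cells and other stroma in the members' falls was not tested. With C646 no gene of any of these lists was called. The 5 adipocyte genes tested had log2 differences of 2.45 to 5.43 in favour of C646. Their unadjusted limma p was 0.00507 to 0.0302 (adjusted p = 0.99 for each). Plin1, with the smallest p, was below 1 FPKM in all DMSO tumors, passed the filter only through the C646 tumors and had to differ. Adipoq and Cidec had only 1 DMSO tumor at or above 1 FPKM.

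**Figure D5:**
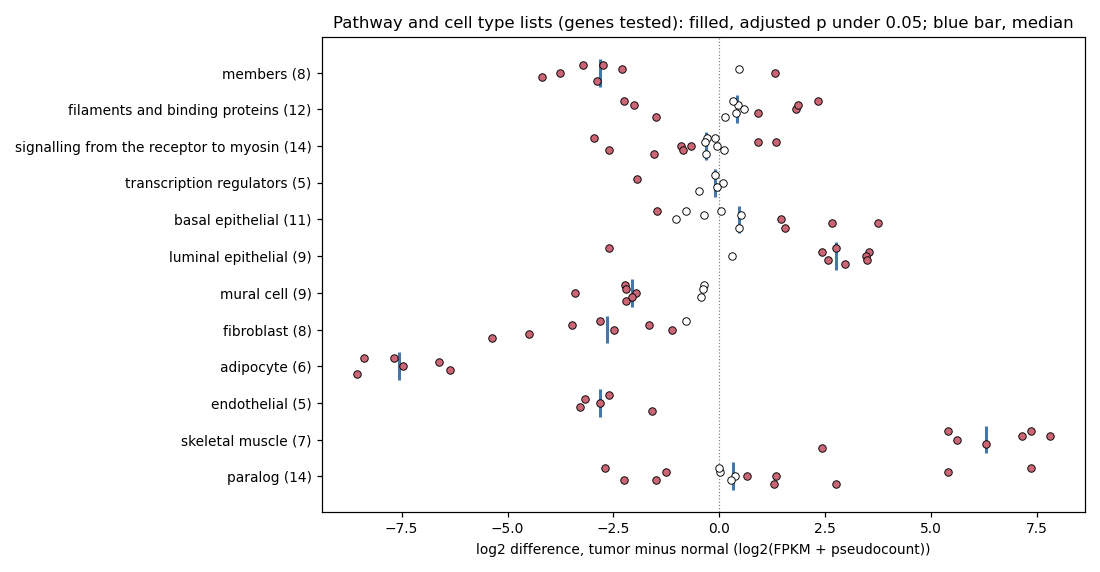
Log2 difference of tumor minus normal for each gene tested in the 8 members and in 11 lists of pathway, cell type and related genes, with the number tested in brackets; filled points have a limma adjusted p under 0.05 and blue bars are medians. The medians of the mural cell, fibroblast and endothelial lists lie at -2.05, -2.66 and -2.83, beside -2.82 for the members, and those of the further contractile pathway lists lie between -0.32 and 0.41.

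Over the 12 samples, the genes whose pattern came closest to the mean of the 5 contractile genes were Ptrf, Ccdc88b, Maf, Gstz1 and Aifm2. Likeness was the root mean square difference between 2 patterns on the log2 scale after removing each gene's own mean, which was 0.285 for Ptrf and 0.321 for Aifm2, against a median of 1.65 over the 13224 genes compared. Ptrf, which encodes cavin 1 of caveolae, measured 149 to 165 FPKM in normal tissue and 8.87 to 23.9 FPKM in the 9 tumors. The 9 mural cell genes ranked from 91 (Cspg4) to 11331 (Notch3) in this order, with a median rank of 1206. The 10 basal genes compared ranked from 2773 (Snai2) to 12689 (Itgb4), with a median of 8067, and the 12 filament genes from 303 (Myl9) to 12629 (Des), with a median of 7496. Oxtr was most like Ehd2, Ank2 and Syt12 (0.343, 0.379 and 0.385), and Trp63 was most like Depdc7, Elf3 and Nradd (0.339, 0.382 and 0.387). The closest genes to Cdh3 were a joined row of Gm12191 and Rpl30, then Hint1 and Socs3, at 0.518 to 0.555. Mylk, looked at after its values were seen, was closest to Slc22a4 (0.444), and Plcb1 ranked 5th (0.583). All genes share the 12 libraries and the difference between normal tissue and tumor, so these distances are descriptive.

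Among the members themselves, Acta2 and Tagln were the closest pair at 0.421, followed by Acta2 and Oxtr at 0.601 and Myh11 and Cnn1 at 0.651. Trp63 and Cdh3 were 0.941 apart. The farthest pair was Myh11 and Trp63 at 2.76.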

How the data were processed

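RNA of 20 mg tissue was sequenced as poly(A) libraries that do not keep strand. The authors trimmed reads with cutadapt, aligned them to mm10 with TopHat2 2.1.1, computed FPKM with Cufflinks 2.2.1, and for each sample deposited names and FPKM in 1 file. These are not counts. The methods name 1 target depth for all libraries, and the reads obtained per library are not in the files. Rows without a name were dropped and rows of the same name summed. The test was limma 3.58.1 under R 4.3.3 (eBayes, variance trend) on log2(FPKM + 0.03125). Genes had to reach 1 FPKM in 3 or more of 6 samples, and p-values were Benjamini-Hochberg adjusted, with a threshold of 0.05. A fold change on this scale understates the change of low genes. The normal and tumor tables hold 26220 rows and those of the injected tumors 24304 rows, so each comparison was fitted alone. Ratios within a sample were compared with two-sided exact permutation tests, which cannot go below 0.1 with 3 against 3. In the injected tumors Krt14 was read from a row shared with Krt16. The fit was tested on simulated data.

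The members, the gene lists and the tests were chosen with earlier results of these data known, and the report supports nothing with a pattern those results already showed. Named were all 8 members, the up to 4 genes of a list with the largest log2 difference and those a list is defined by, relatives of the members, and the 5 genes nearest to the contractile mean and 3 nearest to each other member. The leukocyte list is not reported here. Replicates were separate mice or pools of mice. Positions and promoter sequences came from RefSeq (GRCm38.p6) and overlaps from GENCODE on GRCm38. Alternatives were other pseudocounts, no filter, median-ratio and quantile scaling, no variance trend, a fit over 12 samples, a replicate block, the highest row of a name, and leaving out each replicate. Other steps used Python 3.11.15 (matplotlib 3.10.9, scipy 1.17.1, pandas 2.3.3, numpy 2.4.6).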

Additional observations from a re-analysis of the deposited data

How the results depend on the processing

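In tumor against normal, the 6 falls kept their direction and their call under every alternative tried, and 6 to 7 of the 8 members were called (6 where the call of Trp63 was lost, as given above). The genes called numbered 7886 and ranged from 5600 to 8855 over the alternatives. Quantile normalization moved the median of all genes from -0.02 to 0.12 and the share of lower calls from 52.3% to 45.6%, and changed no member's call. In C646 against DMSO no member was called under any alternative, and no gene was called except without DMSO replicate 2, where 12 genes were, all lower; over the fits that leave out 1 replicate the count was 0 to 12. Signs turned only in uncalled differences of that comparison: Tagln was -0.83 to 0.14, Mylk -0.92 to 0.71 and Trp63 -0.56 to 0.70 when 1 replicate was left out, and without the 3 libraries with skeletal muscle RNA, an alternative chosen after seeing the data that leaves C646 with 1 sample, Tagln was 0.30 and Mylk -1.59. With a pseudocount of 1 the differences in tumor against normal shrank most for Myh11 (-3.03) and Cnn1 (-2.81). The log2 ratio of Cdh3 to Cdh1 moved by less than the replicate spread in all alternatives.

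Replicate numbers in the labels did not pair the samples: the correlation of same-numbered deviations was -0.04, -0.10 and 0.01 for tumor and normal and 0.17, 0.07 and 0.11 for C646 and DMSO. With a replicate block 7266 genes and 7 members were called in tumor against normal, and 0 genes and 0 members in C646 against DMSO.

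FPKM without read counts gives no counting error for the low members Myh11 and Cnn1. The tissue of origin, the pooling of mice and the makeup of the samples cannot be told apart from tumor state.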
